A study of Mus musculus with 25 samples.

Results

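Invariant natural killer T (iNKT) cells of stages 1 and 2 from mice labelled as lacking both Mst1 and Mst2 (dKOMst) were set against WT cells of the same stages. The arrays were chosen by their genotype and stage label alone, which gave 2 dKOMst_S1_S2 and 6 WT_S1_S2 arrays, 8 of the 25 in the series. All cells came from C57BL/6 thymus and were sorted as TCR beta-positive, CD1d tetramer-positive and CD24-negative. Stages 1 and 2 both lack NK1.1 and differ in CD44, and they were measured together, so a shift between them cannot be told apart from a change within one. The labels give neither the age of the mice, the alleles, the promoter of any Cre nor the deleted exons, and they do not say that each array is a separate animal. Each p-value therefore rests on a spread between arrays that could be technical. The titles number the arrays in 2 runs with a gap between them. Both dKOMst arrays carry numbers of the second run, as do 3 of the WT arrays (replicates 4, 5 and 6), while WT replicates 1, 2 and 3 carry numbers of the first. The labels name no batch. Beyond these arrays, 4 Mst1KO_S1_S2 arrays of the first run, labelled for the loss of Mst1 alone, were also used. So were 1 dKOMst array and 3 WT arrays of NK1.1-positive stage 3 (S3) cells of the second run.

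Mst1 and Mst2, encoded by Stk4 and Stk3, are the core kinases of the Hippo pathway: with Sav1 they activate the LATS kinases and MOB1, which keep the coactivators YAP and TAZ out of the nucleus. In lymphocytes the kinases also act outside that branch, with the RASSF adaptors in adhesion and migration and on the transcription factor FOXO1, which maintains quiescence. In the thymus, iNKT cells divide at the early stages and take on natural killer (NK) receptors and a resting state as they reach stage 3.

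Levels are log2 values from 3.15 to 13.65 on these 8 arrays, so a difference of 1 is a doubling, and every difference is dKOMst minus WT with the title number run as an additive term in a limma fit to all 25 arrays. A cluster of probes for 1 transcript is called when its Benjamini-Hochberg adjusted p over 22206 clusters is under 0.05. The median of 5222 negative control items was 6.20 to 6.55 on these arrays, and where no array of a group exceeded it the difference is given as a bound ("at least"). The dKOMst arrays correlated with each other at r = 0.991, and 137 clusters differed at least 2-fold between them, against 121 to 468 clusters for pairs of WT arrays of 1 run. Stk4 read 10.27 and 9.63 in dKOMst cells against 10.18 to 10.74 (median 10.46) in WT cells, a difference of -0.74 ± 0.20 (SE, adjusted p = 0.083), so replicate 1 lay within the WT range although below all 3 second-run WT arrays (10.54 to 10.74). It passed the test only after quantile normalization (-0.81, adjusted p = 0.047). In Mst1KO cells the same cluster differed from WT by -0.92 (adjusted p = 0.0059). Without the Mst1KO arrays low in Y-linked genes, described below, that difference was -0.88 (adjusted p = 0.13). The cluster thus read lower under the loss of Mst1 alone, while dKOMst replicate 1 stayed within the WT range. The reason was not tested. Since the labels do not say which exons are lost, the cluster does not settle the genotype of an array. No cluster carries the symbol Stk3 in the probe annotation given. The array's Mst1 cluster is macrophage stimulating 1, a secreted factor and not the kinase: its difference was -0.90 ± 0.18 (SE, adjusted p = 0.012), and it was named after its value was seen. Its call was lost without single arrays (adjusted p = 0.28 without dKOMst replicate 1, 0.06 without dKOMst replicate 2). It was also lost in other fits, with an adjusted p of 0.14 with only the arrays of both groups fitted, 0.075 with all second-run arrays fitted, 0.065 with the Mst1KO arrays left out and 0.058 with the second-run S1_S2 arrays alone.

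Of 14 iNKT and T cell identity genes Klrb1c alone was called. Zbtb16, the transcription factor of innate-like T cells, read 12.54 and 12.54 in dKOMst cells against 12.45 to 12.62 (median 12.49) in WT cells, and Cd3e read 12.20 and 12.23 in dKOMst cells against 12.20 to 12.35 (median 12.28) in WT cells. Cd24a lay below the negative control median on all 8 arrays, and Cd44 had a difference of 0.03 (adjusted p = 0.97) whose sign turned under 6 other fits. Klrb1c, which encodes the NK1.1 antigen that the sort excluded, was 8.38 and 8.27 in dKOMst cells against 8.49 to 10.15 (median 9.46) in WT cells, a difference of -1.18 ± 0.25 (SE, adjusted p = 0.02). The call of Klrb1c was lost without single arrays (adjusted p = 0.21 without dKOMst replicate 1, 0.17 without dKOMst replicate 2, 0.056 to 0.058 without WT replicates 4 and 6).

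At this threshold 205 clusters were called (0.923%), 123 higher (0.554%) and 82 lower (0.369%) in dKOMst cells. Of these, 47 rose (0.212%) and 32 fell (0.144%) by at least 2-fold. At an unadjusted p under 0.05 there were 2361 (10.6%). The shares called higher (0.554%) and lower (0.369%) are the background for the counts of called list and family members below. Both dKOMst arrays lay above all 6 WT arrays for 1701 clusters (7.66%) and below them for 1484 (6.68%), and 200 of the 205 called clusters were among these. With the 5 second-run arrays alone 100 clusters were called (0.45%), and all 205 kept their direction there, 63 of them with a call. Those 5 arrays, both dKOMst arrays among them, are also part of the main fit, so the kept directions are not separate evidence. The count rests on the pair of dKOMst arrays: it was 33 without replicate 1, of which 31 were among the 205, and 107 without replicate 2, of which 80 were. Leaving out 1 WT array gave 144 to 230. In simulated data of this design, 18% of clusters changed by 0.5, 82% of those changed by 1 and 98% of those changed by 1.5 were called, so changes well under a doubling were mostly out of reach. The simulated noise was normal and independent between arrays and clusters. Variation shared by the clusters of an array was not simulated, so the rates in the real data may be lower. In bulk cells such as these, fewer cells of a type and less RNA per cell cannot be told apart.

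**Figure D1:**
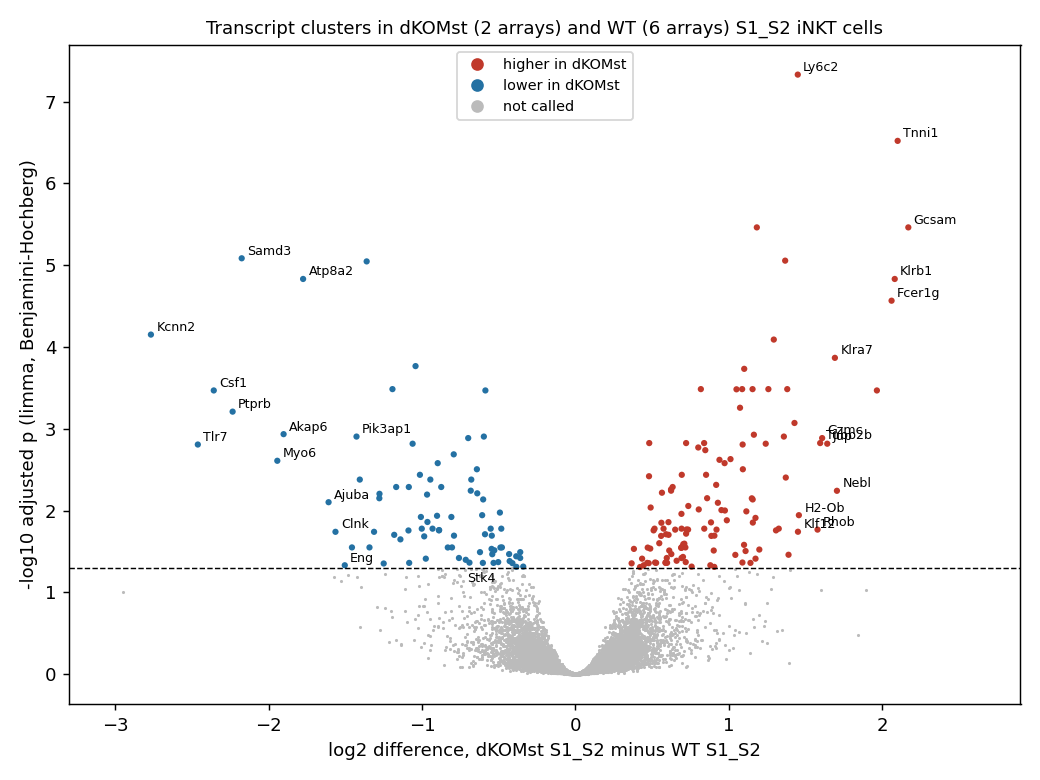
Difference between dKOMst and WT cells of stages 1 and 2 for each of 22206 transcript clusters (x axis, log2) against its adjusted p (y axis, -log10). Red points are the 123 clusters called higher and blue points the 82 called lower, the dashed line is the threshold of 0.05, and Ly6c2, Tnni1 and Gcsam stand highest on the right.

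The largest rises were in genes of NK-type receptors and adaptors, of cytoskeletal proteins and of a B cell signalling adaptor, and 6 of these kept their call whichever array was left out: Gcsam, Tnni1, Klrb1, Fcer1g, Klra7 and Gzmc. Gcsam encodes an adaptor known from germinal centre B cells, where it restrains motility. Its level was 8.52 and 8.90 on the dKOMst arrays, against a lowest, median and highest level of 6.27, 6.64 and 7.10 on the WT arrays, a rise of 2.17 ± 0.21 (SE, adjusted p = 3.4e-06), or 4.50-fold, and of 2.25 (adjusted p = 0.0048) with the second-run arrays alone. Tnni1, the slow skeletal muscle form of troponin I, read 8.63 and 8.75 on the dKOMst arrays, against a lowest, median and highest level of 6.35, 6.72 and 7.31 on the WT arrays. It rose by 2.10 ± 0.18 (SE, adjusted p = 3.0e-07) and by 2.16 (adjusted p = 0.0038) within the second run. In both genes the lower dKOMst array stood more than a doubling above the highest WT array.

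Klrb1 encodes a C-type lectin-like receptor of the CD161 family, whose members are carried by NK cells and many innate-like T cells. It read 7.33 and 7.11 on the dKOMst arrays, against a lowest, median and highest level of 4.999, 5.13 and 5.38 on the WT arrays. No WT array rose above its negative controls, so the fitted rise of 2.08 ± 0.23 (SE, adjusted p = 1.5e-05) is not a measured size, and the levels give a rise of at least 0.83. Within the second run the fitted value was 2.08 (adjusted p = 0.0039). Fcer1g encodes the FcR gamma chain, the signalling adaptor of Fc receptors and several NK receptors, and read 8.58 and 8.35 on the dKOMst arrays, against a lowest, median and highest level of 5.53, 6.51 and 6.75 on the WT arrays. Its rise was 2.06 ± 0.24 (SE, adjusted p = 2.7e-05), and 1.91 (adjusted p = 0.0048) within the second run. WT replicate 2 was far below the other WT arrays, at 5.53 against 6.30 to 6.75, and the highest WT array was still below both dKOMst arrays.

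Klra7 encodes Ly49G, an inhibitory receptor for MHC class I. At 10.08 and 9.83 on the dKOMst arrays, against a lowest, median and highest level of 7.44, 7.90 and 8.56 on the WT arrays it rose by 1.69 ± 0.22 (SE, adjusted p = 0.00014), and by 1.70 (adjusted p = 0.016) within the second run. Gzmc, a granzyme of cytotoxic granules, was 7.16 and 7.39 in dKOMst cells against 5.11 to 6.08 (median 5.68) in WT cells, and again no WT array exceeded its negative controls. The rise was at least 0.88, with an adjusted p of 0.0013, and the fit gave 1.64 (adjusted p = 0.049) in the second run. Its call was lost in 1 fit, that to all second-run arrays (adjusted p = 0.073). Of 17 cytotoxic effector genes measured Gzmc alone was called. Prf1 (perforin), Gzma and Gzmb had differences of 0.28 (adjusted p = 0.84), 0.88 (adjusted p = 0.24) and 0.78 (adjusted p = 0.47). Over the list 13 differences were above 0 and 4 below, with a median of 0.19. The mean level of the list, Gzmc included, was 8.47 and 8.51 on the dKOMst arrays, above the 8.11 to 8.33 of the WT arrays.

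The other 6 of the 12 largest rises were Nebl, Jup, Tubb2b, Rhob, H2-Ob and Klf12. Nebl encodes nebulette, an actin-binding protein. It read 9.78 and 9.34 in dKOMst cells against 7.06 to 8.58 (median 7.93) in WT cells, a rise of 1.70 ± 0.32 (SE, adjusted p = 0.0057). Jup, plakoglobin, links cadherins to the cytoskeleton and read 10.24 and 10.05 in dKOMst cells against 8.10 to 9.20 (median 8.63) in WT cells, a rise of 1.64 ± 0.27 (SE, adjusted p = 0.0015). The 2 groups were well apart in both genes. Rhob encodes a protein of endosomes, and at 9.55 and 9.54 in dKOMst cells against 7.53 to 8.68 (median 7.86) in WT cells it rose by 1.58 ± 0.33 (SE, adjusted p = 0.017). H2-Ob encodes a chain of H2-O, which tempers peptide loading of MHC class II, and at 9.67 and 9.58 in dKOMst cells against 7.84 to 8.79 (median 8.31) in WT cells it rose by 1.46 ± 0.29 (SE, adjusted p = 0.011). The dKOMst arrays were close together in both of these genes. Klf12 was low in WT cells and its dKOMst arrays lay far apart, at 7.77 and 6.57 in dKOMst cells against 5.32 to 6.23 (median 5.89) in WT cells, a rise of at least 0.79 with an adjusted p of 0.018 in the fit. The second-run arrays alone gave 1.86 (adjusted p = 0.065) for Nebl, 1.49 (adjusted p = 0.0048) for Jup, 1.65 (adjusted p = 0.0039) for Rhob, 1.28 (adjusted p = 0.022) for H2-Ob and 1.63 (adjusted p = 0.089) for Klf12. Calls were lost when 1 array was left out for Nebl (adjusted p = 0.23 without dKOMst replicate 1), Jup (0.083 without dKOMst replicate 1), Rhob (0.23 without dKOMst replicate 1, 0.12 without dKOMst replicate 2), H2-Ob (0.21 without dKOMst replicate 1, 0.09 without dKOMst replicate 2) and Klf12 (0.59 without dKOMst replicate 1, 0.059 without WT replicate 4). Of these, all of them also lost the call under at least 1 other fit, with an adjusted p of up to 0.14 (H2-Ob, with all second-run arrays fitted).

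The largest falls were in genes of a potassium channel, an RNA sensor, a myeloid growth factor and membrane proteins, and Kcnn2, Csf1, Ptprb, Samd3 and Atp8a2 kept their calls whichever array was left out and under every fit tried. Kcnn2 encodes a small-conductance calcium-activated potassium channel. It read 4.81 and 6.11 on the dKOMst arrays, against a lowest, median and highest level of 7.64, 8.42 and 8.96 on the WT arrays. Both dKOMst arrays were below their negative controls, so the size of the fall is a bound: the levels give a difference of -2.05 or beyond, with -2.77 ± 0.34 (SE, adjusted p = 7.0e-05) in the fit. Csf1, the growth factor of the macrophage lineage, was at 9.06 and 8.84 on the dKOMst arrays, against a lowest, median and highest level of 10.28, 11.53 and 11.79 on the WT arrays. Its difference was -2.36 ± 0.33 (SE, adjusted p = 0.00034), with -2.41 (adjusted p = 0.013) within the second run. The 2 groups did not overlap in either gene.

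Ptprb encodes a receptor tyrosine phosphatase best known from endothelium. It was 4.97 and 4.57 in dKOMst cells against 5.53 to 7.33 (median 7.10) in WT cells, with both dKOMst arrays below their negative controls. The lowest WT array, replicate 3 at 5.53, was far from the other WT arrays (6.78 to 7.33). With the dKOMst arrays set at their negative controls, the levels give a difference of -0.51 or beyond, and of -0.77 or beyond without WT replicate 3, with a fitted difference of -2.23 ± 0.33 (SE, adjusted p = 0.00062). Samd3, a SAM domain protein gene, read 6.44 and 7.38 in dKOMst cells against 8.63 to 9.45 (median 8.89) in WT cells. Its difference was -2.18 ± 0.23 (SE, adjusted p = 8.2e-06), and its dKOMst arrays lay well apart from each other. Atp8a2, a phospholipid flippase gene, stood at 7.33 and 7.43 in dKOMst cells against 8.70 to 9.99 (median 9.57) in WT cells. The difference was -1.78 ± 0.20 (SE, adjusted p = 1.5e-05), and the dKOMst arrays were close together. Within the second run the fitted differences were -2.70 (adjusted p = 0.042) for Kcnn2, -2.43 (adjusted p = 0.0039) for Ptprb, -2.29 (adjusted p = 0.029) for Samd3 and -1.75 (adjusted p = 0.031) for Atp8a2.

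Tlr7, Myo6, Akap6, Ajuba, Clnk, Eng and Pik3ap1 complete the 12 largest falls. Tlr7, the endosomal sensor of single-stranded RNA, was 6.39 and 6.93 in dKOMst cells against 9.15 to 9.58 (median 9.20) in WT cells, a difference of -2.46 ± 0.40 (SE, adjusted p = 0.0016). Its 6 WT arrays were close together, and both dKOMst arrays were far below them. Pik3ap1 encodes BCAP, an adaptor that couples receptors, TLRs among them, to PI3 kinase. It was 6.28 and 6.82 in dKOMst cells against 7.67 to 8.36 (median 8.08) in WT cells, a difference of -1.43 ± 0.22 (SE, adjusted p = 0.0012). Ajuba encodes a LIM protein that binds the LATS kinases and is counted among YAP targets. It read 7.36 and 7.66 in dKOMst cells against 7.78 to 9.20 (median 8.84) in WT cells, a difference of -1.61 ± 0.31 (SE, adjusted p = 0.0079), and its higher dKOMst array was only just under the lowest WT array.

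Myo6, an unconventional myosin, read 6.88 and 7.43 in dKOMst cells against 7.72 to 9.63 (median 9.08) in WT cells, a difference of -1.94 ± 0.33 (SE, adjusted p = 0.0025). Akap6, an anchor of protein kinase A, read 7.81 and 8.15 in dKOMst cells against 8.68 to 10.33 (median 9.88) in WT cells, a difference of -1.90 ± 0.30 (SE, adjusted p = 0.0012). WT replicate 3 was far below the other WT arrays (8.68 against 9.84 to 10.33). Clnk, an adaptor of the SLP-76 family, was the 1 gene of these 24 whose groups overlapped. It stood at 5.83 and 7.16 in dKOMst cells against 7.06 to 8.67 (median 8.07) in WT cells, a difference of -1.56 ± 0.33 (SE, adjusted p = 0.018). Eng encodes endoglin, a coreceptor of the TGF-beta family, and was 7.19 and 7.97 in dKOMst cells against 8.60 to 9.54 (median 8.997) in WT cells, a difference of -1.50 ± 0.36 (SE, adjusted p = 0.047). In the second run alone the differences were -2.53 (adjusted p = 0.0038) for Tlr7, -1.40 (adjusted p = 0.042) for Pik3ap1, -1.53 (adjusted p = 0.014) for Ajuba, -1.96 (adjusted p = 0.005) for Myo6, -2.07 (adjusted p = 0.0048) for Akap6, -1.86 (adjusted p = 0.085) for Clnk and -1.39 (adjusted p = 0.11) for Eng. All 7 lost the call in the fit without dKOMst replicate 1, at an adjusted p of 0.12 for Tlr7, 0.13 for Pik3ap1, 0.16 for Myo6 and 0.079 for Akap6, and the others in more fits, namely Ajuba (adjusted p = 0.23 without dKOMst replicate 1, 0.054 without dKOMst replicate 2), Clnk (0.6 without dKOMst replicate 1, 0.059 without WT replicate 5) and Eng (0.6 without dKOMst replicate 1, 0.07 without dKOMst replicate 2, 0.056 to 0.11 without WT replicates 1, 3, 4 and 5). Of the 7, Ajuba, Myo6, Clnk and Eng also lost the call under at least 1 other fit, with an adjusted p of up to 0.24 (Eng, with all second-run arrays fitted).

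**Figure D2:**
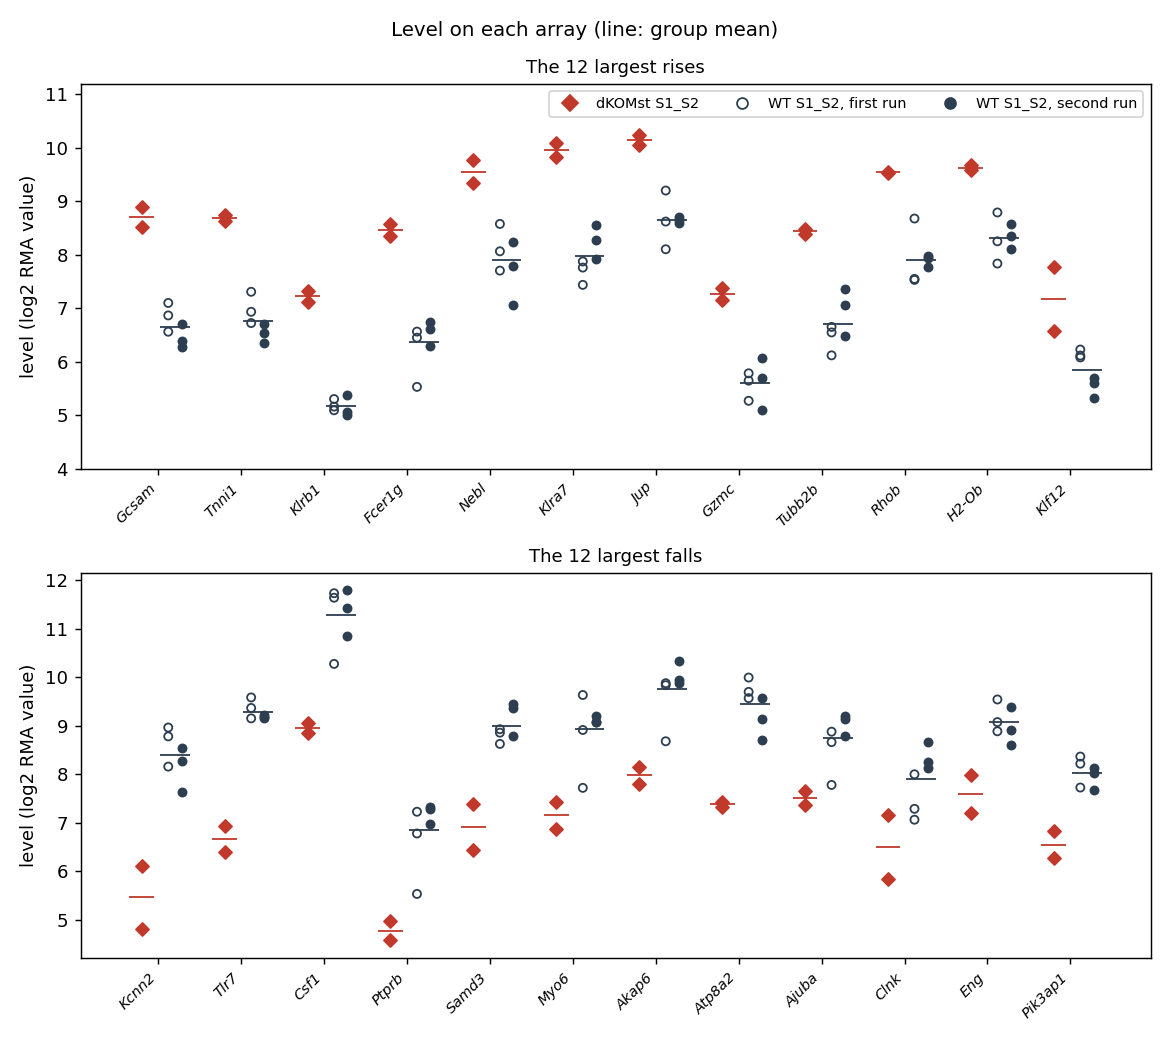
Level (log2 RMA value) of the 12 genes with the largest rises and the 12 with the largest falls on each array, with dKOMst arrays as red diamonds, WT arrays of the first run as open circles, WT arrays of the second run as filled circles and lines at the group means. The groups do not overlap in 23 of the genes, and in Clnk the higher dKOMst array (7.16) lies above the lowest WT array (7.06).

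Several called genes belong to small families or lie side by side in the genome, and these families were picked after the values were seen. Ly6c1 and Ly6c2 are neighbours that encode the surface antigen Ly6C of monocytes and memory-type lymphocytes. Ly6c2, the cluster with the smallest adjusted p of all, was 11.73 and 11.61 in dKOMst cells against 9.95 to 10.30 (median 10.21) in WT cells, a rise of 1.45 ± 0.11 (SE, adjusted p = 4.7e-08). Ly6c1 was 12.28 and 12.39 in dKOMst cells against 10.94 to 11.38 (median 11.10) in WT cells, a rise of 1.18 ± 0.12 (SE, adjusted p = 3.4e-06). The 6 WT arrays of each were close together, and both dKOMst arrays lay far above them. Within the second run the rises were 1.40 (adjusted p = 0.0048) and 1.16 (adjusted p = 0.022), and both calls held whichever array was left out and under every fit. None of the other 13 Ly6 genes was called, with differences of -0.39 to 0.14. The genes are close in sequence, so their probes may read each other's transcripts. Their promoter windows (250 bases before to 50 after the first start listed, RefSeq, GRCm38.p6) lie at chr15:75048788-75049087 on the minus strand and chr15:75111922-75112221 on the minus strand. They are shown because the genes rose together, and capitals mark the longest run of bases that both share, 20 bases within an alignment that is identical at 214 of 288 columns (74.3%).
Ly6c1: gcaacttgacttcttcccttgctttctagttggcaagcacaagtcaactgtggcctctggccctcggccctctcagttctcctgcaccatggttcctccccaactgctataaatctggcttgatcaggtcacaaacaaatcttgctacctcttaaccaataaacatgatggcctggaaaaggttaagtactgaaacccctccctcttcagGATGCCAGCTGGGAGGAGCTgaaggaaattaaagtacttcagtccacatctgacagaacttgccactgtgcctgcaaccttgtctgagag
Ly6c2: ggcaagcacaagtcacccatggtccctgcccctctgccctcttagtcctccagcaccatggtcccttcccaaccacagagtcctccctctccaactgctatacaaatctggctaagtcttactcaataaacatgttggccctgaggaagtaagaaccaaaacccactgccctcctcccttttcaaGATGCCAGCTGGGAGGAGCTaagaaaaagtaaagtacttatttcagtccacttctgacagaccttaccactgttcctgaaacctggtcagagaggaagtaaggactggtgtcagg

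All 4 measured Bcl2a1 genes, which encode the anti-apoptotic BCL2 relative A1, were lower in dKOMst cells. Bcl2a1b was 12.08 and 12.22 in dKOMst cells against 12.58 to 12.84 (median 12.72) in WT cells, a difference of -0.59 ± 0.08 (SE, adjusted p = 0.00034). Bcl2a1d was 11.84 and 12.19 in dKOMst cells against 12.45 to 12.72 (median 12.58) in WT cells, with a difference of -0.60 ± 0.09 (SE, adjusted p = 0.0012). Bcl2a1a was 11.08 and 11.27 in dKOMst cells against 11.54 to 12.03 (median 11.86) in WT cells, with a difference of -0.68 ± 0.13 (SE, adjusted p = 0.0057). These copies were bright on every array, and no dKOMst array reached a WT value. Bcl2a1c, a dimmer copy, read 5.70 and 6.26 in dKOMst cells against 6.45 to 7.22 (median 6.88) in WT cells, a difference of -1.002 ± 0.21 (SE, adjusted p = 0.017). None of the 4 was called with the second-run arrays alone, where the adjusted p was 0.068 for Bcl2a1a, 0.082 for Bcl2a1c, 0.1 for Bcl2a1b and 0.15 for Bcl2a1d. Calls were lost for Bcl2a1b (adjusted p = 0.054 without dKOMst replicate 1), Bcl2a1d (0.16 without dKOMst replicate 1), Bcl2a1a (0.23 without dKOMst replicate 1) and Bcl2a1c (0.46 without dKOMst replicate 1, 0.052 without WT replicate 4). Of the 4 copies, all of them also lost the call under at least 1 other fit, with an adjusted p of up to 0.17 (Bcl2a1d, with only the arrays of both groups fitted). The copies are near-identical, so their probes may read each other's transcripts and the calls are uncertain as to the copy. Of 16 BCL2 family genes listed only Bcl2a1a, Bcl2a1b and Bcl2a1d were called, the list median was 0.09, and Bcl2 and Mcl1 had differences of 0.49 (adjusted p = 0.28) and 0.26 (adjusted p = 0.45). The promoter windows of 3 copies are at chr9:88956670-88956969 on the plus strand, chr9:89199023-89199322 on the plus strand and chr9:88731801-88732100 on the minus strand (RefSeq, GRCm38.p6). They are shown to make the likeness of the copies visible. Capitals mark the longest run shared by all 3, 84 bases, and pairs of windows were identical at 96.0% to 99.2% of the columns where they overlap.
Bcl2a1a: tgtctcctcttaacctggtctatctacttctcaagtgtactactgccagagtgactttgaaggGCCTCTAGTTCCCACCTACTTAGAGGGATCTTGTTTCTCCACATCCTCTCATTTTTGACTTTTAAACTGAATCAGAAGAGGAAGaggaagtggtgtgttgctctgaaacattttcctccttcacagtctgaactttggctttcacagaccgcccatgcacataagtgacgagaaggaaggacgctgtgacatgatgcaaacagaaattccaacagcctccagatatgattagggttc
Bcl2a1b: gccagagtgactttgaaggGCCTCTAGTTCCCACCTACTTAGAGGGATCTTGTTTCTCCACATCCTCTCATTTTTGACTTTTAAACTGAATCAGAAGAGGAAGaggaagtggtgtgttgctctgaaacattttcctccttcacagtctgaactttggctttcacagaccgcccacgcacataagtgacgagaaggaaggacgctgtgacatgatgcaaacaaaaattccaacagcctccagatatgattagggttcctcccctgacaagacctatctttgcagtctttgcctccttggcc
Bcl2a1d: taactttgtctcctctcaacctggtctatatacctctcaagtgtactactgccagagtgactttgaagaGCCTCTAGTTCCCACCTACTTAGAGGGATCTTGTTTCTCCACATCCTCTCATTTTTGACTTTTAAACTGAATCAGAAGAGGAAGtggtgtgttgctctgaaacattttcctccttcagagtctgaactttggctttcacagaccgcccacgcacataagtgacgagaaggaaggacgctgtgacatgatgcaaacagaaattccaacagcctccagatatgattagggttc

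Of the 17 Kruppel-like factor genes measured, zinc finger regulators of which Klf2 is known for holding T cells in quiescence and for driving egress genes, 5 rose and none fell, beside 0.554% of all clusters called higher. Klf6 was 11.97 and 11.96 in dKOMst cells against 10.19 to 11.16 (median 10.66) in WT cells, a rise of 1.26 ± 0.17 (SE, adjusted p = 0.00033) and of 1.24 (adjusted p = 0.0085) within the second run. Klf7 was 9.57 and 9.44 in dKOMst cells against 8.05 to 8.65 (median 8.35) in WT cells, a rise of 1.15 ± 0.16 (SE, adjusted p = 0.00033) and of 1.15 (adjusted p = 0.049) within the second run. Both were clear of every WT array. Klf2 read 9.44 and 9.23 in dKOMst cells against 7.93 to 8.34 (median 8.26) in WT cells, a rise of 1.11 ± 0.25 (SE, adjusted p = 0.031), and 1.096 (adjusted p = 0.016) in the second run. Klf8 read 8.16 and 7.74 in dKOMst cells against 6.30 to 7.22 (median 6.74) in WT cells, a rise of 1.17 ± 0.28 (SE, adjusted p = 0.039), and with Klf12 above they make the 5. Klf3 had a difference of similar size that missed the threshold, 1.001 (adjusted p = 0.088), and the median over the 17 was 0.30, with 4 of them below the negative controls on all 8 arrays. The call was not kept with 1 array left out for Klf2 (adjusted p = 0.41 without dKOMst replicate 1, 0.12 without dKOMst replicate 2, 0.057 to 0.066 without WT replicates 4, 5 and 6) and Klf8 (0.48 without dKOMst replicate 1, 0.093 without dKOMst replicate 2, 0.051 to 0.11 without WT replicates 1, 4 and 6), while Klf6 and Klf7 held whichever array was left out. Of the 4, Klf6, Klf2 and Klf8 also lost the call under at least 1 other fit, with an adjusted p of up to 0.12 (Klf2, with the Mst1KO arrays left out).

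Beta tubulin genes, a family picked after the values were seen, gave 3 rises among 8 measured, beside 0.554% of all clusters called higher. Tubb2b was 8.40 and 8.48 in dKOMst cells against 6.12 to 7.36 (median 6.60) in WT cells, a rise of 1.59 ± 0.26 (SE, adjusted p = 0.0015). Its neighbour Tubb2a was 9.90 and 9.39 in dKOMst cells against 8.27 to 9.11 (median 8.56) in WT cells, a rise of 0.95 ± 0.19 (SE, adjusted p = 0.0099). Tubb4b was 10.04 and 10.19 in dKOMst cells against 9.32 to 9.69 (median 9.59) in WT cells, a rise of 0.55 ± 0.12 (SE, adjusted p = 0.025). Tubb5, a widely used form, had a difference of 0.22 (adjusted p = 0.45). Within the second run the rises were 1.47 (adjusted p = 0.049) for Tubb2b, 0.92 (adjusted p = 0.23) for Tubb2a and 0.47 (adjusted p = 0.19) for Tubb4b. Leaving out 1 array ended the calls of Tubb2b (adjusted p = 0.051 without dKOMst replicate 1), Tubb2a (0.41 without dKOMst replicate 1) and Tubb4b (0.16 without dKOMst replicate 1, 0.24 without dKOMst replicate 2). Of the 3, Tubb2a and Tubb4b also lost the call under at least 1 other fit, with an adjusted p of up to 0.28 (Tubb4b, with only the arrays of both groups fitted).

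**Figure D3:**
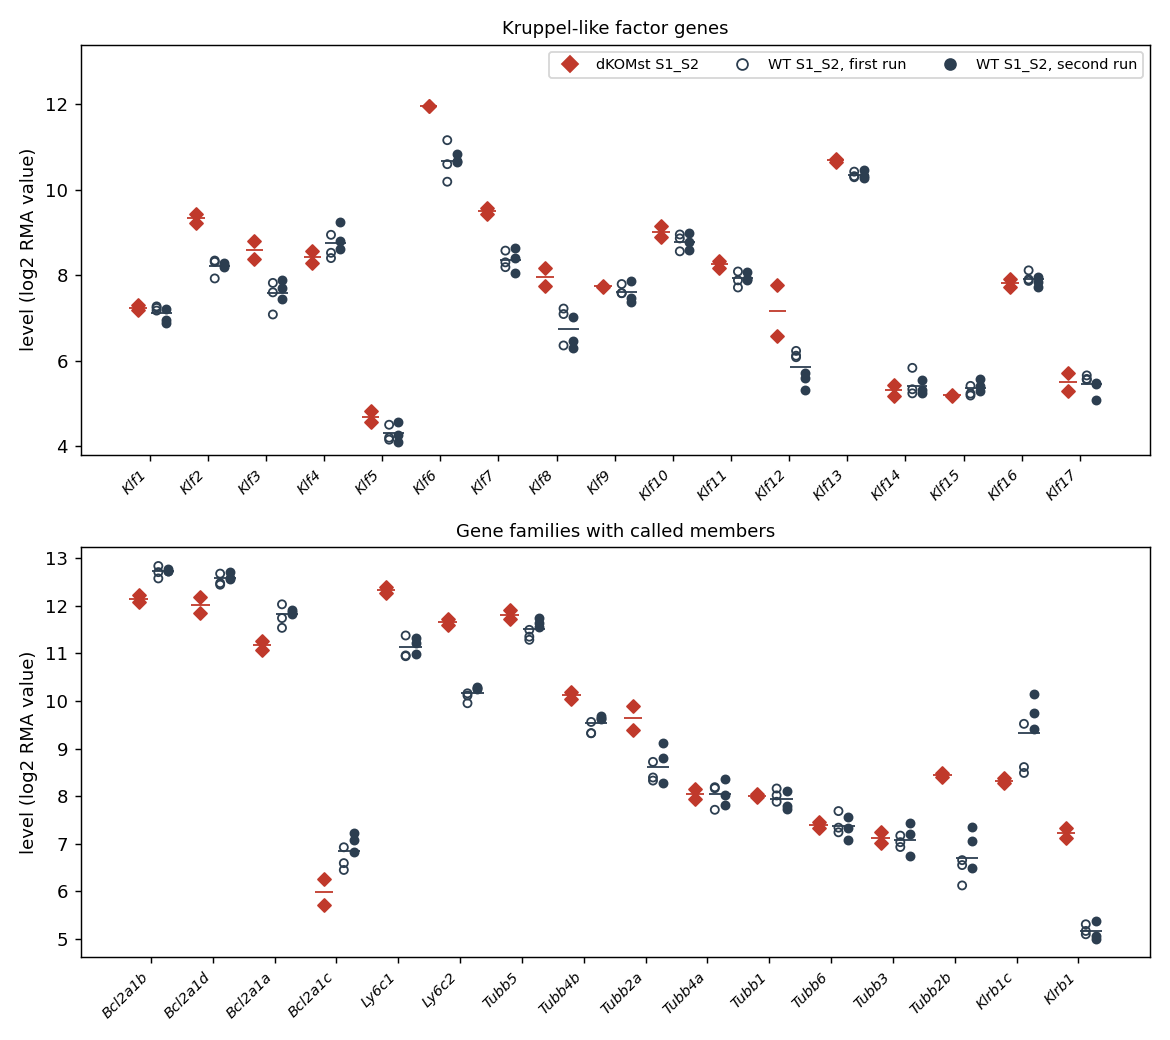
Level (log2 RMA value) on each array of the 17 Kruppel-like factor genes (above) and of Bcl2a1, Ly6c, beta tubulin and Klrb1 genes (below), with dKOMst arrays as red diamonds left of the WT arrays of the first (open circles) and second run (filled circles) and lines at the group means. The dKOMst diamonds lie above all WT circles for Klf2, Klf6, Klf7, Klf8 and Klf12 and below them for the 4 Bcl2a1 genes.

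Of 19505 genes placed in the annotation used, 189 were called. Among these, 10 pairs of next neighbours were called in the same direction and 1 pair in opposite directions. How many such pairs would arise with no link between neighbours was not worked out, so the count gives no result about shared loci. S1pr4, a sphingosine 1-phosphate receptor, and Gna15, a G protein alpha subunit, lie side by side and rose by 0.63 ± 0.12 (SE, adjusted p = 0.0052) and 0.92 ± 0.17 (SE, adjusted p = 0.0049). Il4ra and Il21r, cytokine receptor genes that share a locus, rose by 0.84 ± 0.17 (SE, adjusted p = 0.017) and 1.098 ± 0.24 (SE, adjusted p = 0.026). Jup and its neighbour P3h4 rose together, P3h4 by 1.37 ± 0.14 (SE, adjusted p = 8.8e-06). Itgae encodes CD103, the integrin chain that binds E-cadherin, and carries Haspin, a histone kinase gene, within an intron. They fell by 0.83 (adjusted p = 0.028) and 0.72 (adjusted p = 0.04), and transcripts of overlapping genes were not separated here. Kcnn2 and Trim36, a ubiquitin ligase gene, both fell, Trim36 with a difference of -1.01 ± 0.20 (SE, adjusted p = 0.012). These genes were named after their values were seen, and calls were lost for S1pr4 (adjusted p = 0.14 without dKOMst replicate 1, 0.057 without dKOMst replicate 2), Gna15 (0.089 without dKOMst replicate 1, 0.08 without dKOMst replicate 2), Itgae (0.52 without dKOMst replicate 1, 0.051 to 0.063 without WT replicates 4, 5 and 6), Haspin (0.16 without dKOMst replicate 1, 0.33 without dKOMst replicate 2, 0.066 to 0.075 without WT replicates 4, 5 and 6) and Trim36 (0.12 without dKOMst replicate 1, 0.15 without dKOMst replicate 2). Of the genes in these pairs, Jup, S1pr4, Gna15, Itgae, Haspin, Trim36 and Il4ra also lost the call under at least 1 other fit, with an adjusted p of up to 0.21 (Haspin, with only the arrays of both groups fitted), while P3h4, Kcnn2, Ly6c1 and Ly6c2 kept theirs in every fit.

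For quiescence regulators 4 of 23 measured genes rose and none fell, beside 0.554% of all clusters called higher. Both dKOMst arrays were above all WT arrays for 10 of the 23, beside 7.66% of all clusters. The list median was 0.29, against 0.009 for all clusters. Tsc22d3, the glucocorticoid-induced leucine zipper, read 7.76 and 7.67 in dKOMst cells against 5.81 to 7.39 (median 6.70) in WT cells, a rise of 1.39 ± 0.32 (SE, adjusted p = 0.035). Foxo1, the quiescence factor named above, read 10.39 and 10.45 in dKOMst cells against 9.94 to 10.09 (median 10.03) in WT cells, a rise of 0.43 ± 0.10 (SE, adjusted p = 0.039). With Klf2 and Klf6 these are the 4 calls, and the dKOMst arrays lay above the WT arrays in each. Klf2 and Klf6 are already counted among the Kruppel-like factor genes above, and the lists were chosen with earlier results of these data known. The share of calls in this list is therefore not a separate result. The cell cycle inhibitor gene Cdkn1b had a difference of 0.38 (adjusted p = 0.37) and Cdkn2c one of -0.64 (adjusted p = 0.16). Calls were lost for Tsc22d3 (adjusted p = 0.37 without dKOMst replicate 1, 0.16 without dKOMst replicate 2, 0.078 to 0.099 without WT replicates 4 and 5) and Foxo1 (0.27 without dKOMst replicate 1, 0.24 without dKOMst replicate 2, 0.052 to 0.089 without WT replicates 4, 5 and 6), and both also lost the call under at least 1 other fit, with an adjusted p of up to 0.29 (Foxo1, with all second-run arrays fitted).

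No cell cycle gene listed was called by limma, with 1 of 26 genes of G1 and S phase and 2 of 25 genes of G2 and M phase at an unadjusted p under 0.05, beside 10.6% of all clusters. The median over the G1 and S phase genes was -0.01, with 13 differences above 0 and 13 below. The median over the G2 and M phase genes was -0.25, with 21 differences below 0. Ccnb2, cyclin B2, was named by its p and read 10.31 and 10.52 in dKOMst cells against 10.53 to 11.05 (median 10.77) in WT cells, a difference of -0.47 (adjusted p = 0.21). The mean level of the G2 and M list was 8.83 and 9.16 on the dKOMst arrays and 8.30 to 9.39 on the WT arrays, and against the second-run WT arrays alone (9.08 to 9.39) replicate 1 lay below all 3 and replicate 2 among them. Mki67, a marker of dividing cells, was 11.56 and 11.76 in dKOMst cells against 11.10 to 11.96 (median 11.58) in WT cells.

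Of 21 genes of adhesion, homing and egress 4 rose and 1 fell, beside 0.554% of all clusters called higher and 0.369% called lower. Itga4, the alpha 4 integrin chain that binds VCAM-1, was 10.69 and 10.54 in dKOMst cells against 8.98 to 10.09 (median 9.30) in WT cells, a rise of 1.43 ± 0.22 (SE, adjusted p = 0.00085) and of 1.47 (adjusted p = 0.0061) within the second run. Cd69, an activation antigen that holds lymphocytes in tissue, was 11.12 and 11.06 in dKOMst cells against 9.41 to 10.36 (median 10.04) in WT cells, a rise of 1.24 ± 0.20 (SE, adjusted p = 0.0015) and of 1.20 (adjusted p = 0.085) within the second run. S1pr1, the sphingosine 1-phosphate receptor of thymic egress that Cd69 opposes and Klf2 drives, was 11.31 and 10.93 in dKOMst cells against 9.97 to 10.31 (median 10.06) in WT cells, a rise of 0.97 ± 0.17 (SE, adjusted p = 0.0026) and of 1.03 (adjusted p = 0.044) within the second run. Thus genes of opposed roles in egress were higher on both dKOMst arrays than on any WT array. Itgae read 9.08 and 9.55 in dKOMst cells against 10.01 to 10.41 (median 10.12) in WT cells and was lower. The chemokine receptor genes Cxcr3, Cxcr4, Cxcr6 and Ccr7 had differences of -0.61 (adjusted p = 0.064), 0.73 (adjusted p = 0.4), 0.24 (adjusted p = 0.85) and 0.23 (adjusted p = 0.52). Without single arrays the call was lost for Itga4 (adjusted p = 0.057 without dKOMst replicate 1), Cd69 (0.071 without dKOMst replicate 1) and S1pr1 (0.2 without dKOMst replicate 1). Of these 3, Cd69 also lost the call under at least 1 other fit, with an adjusted p of up to 0.091 (Cd69, with only the arrays of both groups fitted). S1pr1 was named after its value was seen.

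Genes that tie adhesion to the actin skeleton also appeared among the calls, and those named here were chosen after their values were seen. Tns1, a tensin of focal adhesions, was 8.36 and 8.26 in dKOMst cells against 6.93 to 7.48 (median 7.18) in WT cells, a rise of 1.16 ± 0.18 (SE, adjusted p = 0.0012). Tns4, another tensin, was 11.05 and 10.68 in dKOMst cells against 8.90 to 10.02 (median 9.42) in WT cells, a rise of 1.20 ± 0.27 (SE, adjusted p = 0.03). Actn1 (alpha-actinin) rose by 0.90 ± 0.21 (SE, adjusted p = 0.031), Flna (filamin A) by 0.60 ± 0.14 (SE, adjusted p = 0.044) and L1cam, a cell adhesion molecule, by 0.99 ± 0.20 (SE, adjusted p = 0.013). Emp1, a small membrane protein gene, was 10.41 and 10.44 in dKOMst cells against 9.16 to 9.73 (median 9.52) in WT cells, a rise of 1.05 ± 0.15 (SE, adjusted p = 0.00033) that was kept under every fit. Of the 28 genes in the list of actin and migration machinery only Rhoh, a GTPase of lymphocytes, was called, with a rise of 0.66 ± 0.16 (SE, adjusted p = 0.041). In that list 23 of the 28 differences were above 0 and their median was 0.08. Both dKOMst arrays lay above all 6 WT arrays for 9 of the 28 and below them for 0, beside 7.66% and 6.68% of all clusters. The mean level of the list was 11.34 and 11.31 on the dKOMst arrays, against 11.09 to 11.24 on the WT arrays. An array left out ended the call for Tns1 (adjusted p = 0.064 without dKOMst replicate 1), Tns4 (0.45 without dKOMst replicate 1, 0.091 without dKOMst replicate 2, 0.062 without WT replicate 5), Actn1 (0.38 without dKOMst replicate 1, 0.14 without dKOMst replicate 2, 0.082 to 0.089 without WT replicates 4 and 5), Flna (0.41 without dKOMst replicate 1, 0.17 without dKOMst replicate 2, 0.054 to 0.1 without WT replicates 1, 4 and 5), L1cam (0.31 without dKOMst replicate 1, 0.06 without dKOMst replicate 2) and Rhoh (0.38 without dKOMst replicate 1, 0.18 without dKOMst replicate 2, 0.055 to 0.072 without WT replicates 1, 4, 5 and 6). Of these 6, Tns4, Actn1, Flna, L1cam and Rhoh also lost the call under at least 1 other fit, with an adjusted p of up to 0.42 (Rhoh, with only the arrays of both groups fitted).

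Of 21 NK receptor genes Klra7 and Cd244a rose and Klrb1c fell, and the list median was -0.19. Cd244a, a receptor of the SLAM family, was 8.35 and 8.23 in dKOMst cells against 6.98 to 7.44 (median 7.09) in WT cells, a rise of 1.14 ± 0.27 (SE, adjusted p = 0.044). Of the other 9 Klra genes, none of them called, 4 had arrays of both groups above the negative controls, with differences of -0.85 (Klra3, adjusted p = 0.06) to -0.30. Klra6 had no WT array above the controls, and its levels give a difference of at least 0.59 (adjusted p = 0.086 in the fit). In the Klrb1 family, Klrb1 rose while Klrb1c fell, and Klrb1b had a difference of -0.95 (adjusted p = 0.51). Klrb1a was below the negative controls on all 8 arrays, so it gives no size. The mean level of the NK receptor list was 6.73 and 6.71 on the dKOMst arrays and 6.33 to 7.27 on the WT arrays. The dKOMst arrays were thus inside the WT range for the list as a whole. The call of Cd244a was lost without single arrays (adjusted p = 0.41 without dKOMst replicate 1, 0.17 without dKOMst replicate 2, 0.053 to 0.1 without WT replicates 1, 2, 4, 5 and 6). Of these calls, Cd244a and Klrb1c also lost the call under at least 1 other fit, with an adjusted p of up to 0.13 (Cd244a, with all second-run arrays fitted).

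Among 20 effector cytokine and chemokine genes Csf1 and Il4 fell and Tnf rose. Il4, the signature cytokine of early iNKT cells and NKT2 cells, was 10.60 and 10.18 in dKOMst cells against 11.22 to 11.53 (median 11.37) in WT cells, a difference of -0.90 ± 0.15 (SE, adjusted p = 0.0026). Its WT arrays were close together, and both dKOMst arrays lay well below them. Il13, its neighbour in the Th2 locus, had a difference of -0.46 (adjusted p = 0.14) and Ifng one of 0.91 (adjusted p = 0.29). Tnf was 8.55 and 8.44 in dKOMst cells against 7.51 to 8.41 (median 7.87) in WT cells, a rise of 0.76 ± 0.18 (SE, adjusted p = 0.048) that was lost under 8 of the fits that kept every array or dropped whole groups. Of 22 cytokine receptor genes Il21r and Il4ra rose: Il21r was 9.44 and 9.45 in dKOMst cells against 7.996 to 8.63 (median 8.32) in WT cells and Il4ra was 9.56 and 9.67 in dKOMst cells against 8.59 to 9.11 (median 8.71) in WT cells. Within the second run Il4 differed by -0.98 (adjusted p = 0.064), Il21r by 1.17 (adjusted p = 0.0499) and Il4ra by 1.01 (adjusted p = 0.016). Calls were lost for Il4 (adjusted p = 0.12 without dKOMst replicate 2), Tnf (0.45 without dKOMst replicate 1, 0.17 without dKOMst replicate 2, 0.056 to 0.12 without WT replicates 1, 2, 4 and 5), Il21r (0.27 without dKOMst replicate 1, 0.16 without dKOMst replicate 2, 0.066 to 0.076 without WT replicates 4 and 5) and Il4ra (0.17 without dKOMst replicate 1, 0.16 without dKOMst replicate 2, 0.051 without WT replicate 4). Of these 4, Il4, Tnf and Il4ra also lost the call under at least 1 other fit, with an adjusted p of up to 0.37 (Tnf, with only the arrays of both groups fitted).

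Of 28 genes of the T cell receptor signal and immediate early response, Klf6, Cd69 and Klf2 rose and Nr4a3, an orphan nuclear receptor, fell. Nr4a3 was 8.27 and 8.08 in dKOMst cells against 8.56 to 9.33 (median 9.25) in WT cells, a difference of -0.89 ± 0.19 (SE, adjusted p = 0.017). Its relatives and the Egr and Fos genes were not called: Nr4a1 had a difference of 0.37 (adjusted p = 0.39), Egr1 of -0.05 (adjusted p = 0.97), Egr2 of -0.33 (adjusted p = 0.7), Fos of 0.10 (adjusted p = 0.95) and Jun of 1.05 (adjusted p = 0.064). Ptprc, the phosphatase CD45, was the only call among 22 genes of the T cell receptor complex, a rise of 0.38 ± 0.09 (SE, adjusted p = 0.029). Lat2, an adaptor of the LAT type, rose by 1.15 ± 0.22 (SE, adjusted p = 0.0071), and Rasa3, a GTPase-activating protein of Ras and Rap, by 0.84 ± 0.14 (SE, adjusted p = 0.0015). Both were named after their values were seen. Leaving out 1 array ended the calls of Nr4a3 (adjusted p = 0.14 without dKOMst replicate 1, 0.19 without dKOMst replicate 2, 0.055 without WT replicate 5), Ptprc (0.19 without dKOMst replicate 1, 0.25 without dKOMst replicate 2, 0.058 to 0.088 without WT replicates 4, 5 and 6), Lat2 (0.18 without dKOMst replicate 1, 0.064 without dKOMst replicate 2) and Rasa3 (0.12 without dKOMst replicate 1). Of these 4, all of them also lost the call under at least 1 other fit, with an adjusted p of up to 0.31 (Nr4a3, with only the arrays of both groups fitted).

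In the Hippo pathway list 2 of 26 measured genes rose, beside 0.554% of all clusters called higher. The list takes in RASSF adaptors and Foxo1 as well as the core members, and both calls lie outside the core. Rassf1, a scaffold that binds the MST kinases, was 9.96 and 9.71 in dKOMst cells against 8.65 to 9.42 (median 9.07) in WT cells, a rise of 0.59 ± 0.13 (SE, adjusted p = 0.019), and Foxo1 is the other. The core partners showed no call: Sav1 had a difference of -0.14 (adjusted p = 0.79), Lats1 of -0.17 (adjusted p = 0.65), Mob1a of 0.08 (adjusted p = 0.86) and Rassf5 of -0.06 (adjusted p = 0.93). Stk38, an NDR kinase that MST1 can activate, had 0.50 (adjusted p = 0.086). Yap1 and the transcription partner Tead1 lay under the negative controls on all 8 arrays. Among 27 YAP and TAZ targets only Ajuba was called, and it fell. The target genes Ccn2 and Axl had differences of -0.24 (adjusted p = 0.51) and -0.19 (adjusted p = 0.83), and the list median was -0.04. Ccn1 had no dKOMst array above the controls, and its difference was -0.29 or beyond (adjusted p = 0.51 in the fit). Lost calls were those of Rassf1 (adjusted p = 0.45 without dKOMst replicate 1, 0.062 without WT replicate 4) and Foxo1 (0.27 without dKOMst replicate 1, 0.24 without dKOMst replicate 2, 0.052 to 0.089 without WT replicates 4, 5 and 6). Rassf1 also lost the call in other fits, at 0.31 with only the arrays of both groups fitted, 0.19 with the second-run S1_S2 arrays alone, 0.14 with all second-run arrays fitted and 0.065 with the Mst1KO arrays left out.

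The iNKT subset lists held few calls. Of 20 NKT1 markers Ly6c2 rose and Klrb1c fell, and the NKT1 factor Tbx21 had a difference of -0.80 (adjusted p = 0.077). Of 14 NKT2 markers Il4ra rose and Il4 fell. Of 19 NKT17 markers only 5830411N06Rik was called, with a difference of -1.28 ± 0.24 (SE, adjusted p = 0.0071). The call was lost without dKOMst replicate 1 (adjusted p = 0.39). Its adjusted p was 0.1 with all second-run arrays fitted and 0.071 with the second-run S1_S2 arrays alone. The NKT17 list separated the dKOMst arrays from each other: its mean level was 8.55 on replicate 1 and 9.32 on replicate 2, against 8.98 to 9.61 on the WT arrays. Ccr6 read 7.84 and 9.65 in dKOMst cells against 7.36 to 9.09 (median 8.72) in WT cells and Pxdc1 6.99 and 9.35 in dKOMst cells against 8.28 to 10.10 (median 9.02) in WT cells. The list median was -0.16 with both arrays, 0.20 without replicate 1 and -0.94 without replicate 2, so its direction rests on 1 array. Sox4, a factor of immature thymocytes, was the only call of 16 early iNKT genes: it was 9.06 and 8.97 in dKOMst cells against 7.91 to 8.31 (median 8.11) in WT cells, a rise of 0.88 ± 0.18 (SE, adjusted p = 0.014). Its call was lost without single arrays (adjusted p = 0.25 without dKOMst replicate 1, 0.091 without dKOMst replicate 2). Other fits in which it was lost gave an adjusted p of 0.055 with the Mst1KO arrays left out and 0.0503 with all second-run arrays fitted. Among 24 iNKT transcription factors Klf2 and Eomes rose. Eomes, a T-box factor of NK cells and memory T cells, was 6.99 and 7.01 in dKOMst cells against 5.37 to 6.31 (median 5.97) in WT cells, with no WT array above its negative controls and a rise of at least 0.61 (adjusted p = 0.02 in the fit).

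Of 29 cytosolic ribosomal protein genes 1 fell, but all 29 differences were below 0 and 26 had both dKOMst arrays below all WT arrays, beside 6.68% of all clusters. The median was -0.17, and -0.12 after quantile normalization. Rps9, the call, was 12.37 and 12.31 in dKOMst cells against 12.43 to 12.74 (median 12.65) in WT cells, a difference of -0.34 ± 0.08 (SE, adjusted p = 0.048). Its call was lost without single arrays (adjusted p = 0.27 without dKOMst replicate 1, 0.29 without dKOMst replicate 2, 0.053 to 0.11 without WT replicates 1, 2, 4, 5 and 6). Other fits ended it as well, at 0.42 with only the arrays of both groups fitted, 0.3 with the second-run S1_S2 arrays alone, 0.24 with all second-run arrays fitted, 0.17 with the Mst1KO arrays left out, 0.12 with no run term, 0.1 with quantile normalization, 0.079 with the run as a random block and 0.073 with median centring. The call was kept under 4 of 19 alternatives. These are small shifts in clusters near the top of the array's range. In the list of glycolysis and glucose transport genes Slc2a1, the glucose transporter GLUT1, alone was called of 19, a rise of 0.49 ± 0.11 (SE, adjusted p = 0.029). That call was lost without single arrays (adjusted p = 0.45 without dKOMst replicate 1, 0.08 without dKOMst replicate 2, 0.066 to 0.075 without WT replicates 4 and 6). It was lost as well in other fits, with an adjusted p of 0.31 with only the arrays of both groups fitted, 0.18 with the second-run S1_S2 arrays alone, 0.12 with all second-run arrays fitted, 0.11 with the Mst1KO arrays left out, 0.1 with no run term and 0.058 with the run as a random block. Ldha and Hk2 had differences of -0.01 (adjusted p = 0.99) and 0.10 (adjusted p = 0.98). No gene was called by limma among 7 further lists. At an unadjusted p under 0.05 they held 5 of 31 genes of oxidative phosphorylation, 1 of 19 of cholesterol and fatty acid synthesis, 2 of 22 of amino acid transport and stress response, 4 of 14 of heat shock, 4 of 16 of NF-kB, 8 of 26 of the type I interferon response and 0 of 8 GIMAP genes, beside 10.6% of all clusters. In the interferon list 20 of 26 differences were below 0. Its mean level was 8.70 and 8.69 on the dKOMst arrays, against 8.89 to 8.95 on the second-run WT arrays and 8.64 to 8.95 on all WT arrays. Both dKOMst arrays were thus below the WT arrays of their own run and inside the range of all 6. Isg15, the interferon-induced ubiquitin-like protein, read 7.78 and 7.97 in dKOMst cells against 7.95 to 8.55 (median 8.47) in WT cells, a difference of -0.61 (adjusted p = 0.051).

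**Figure D4:**
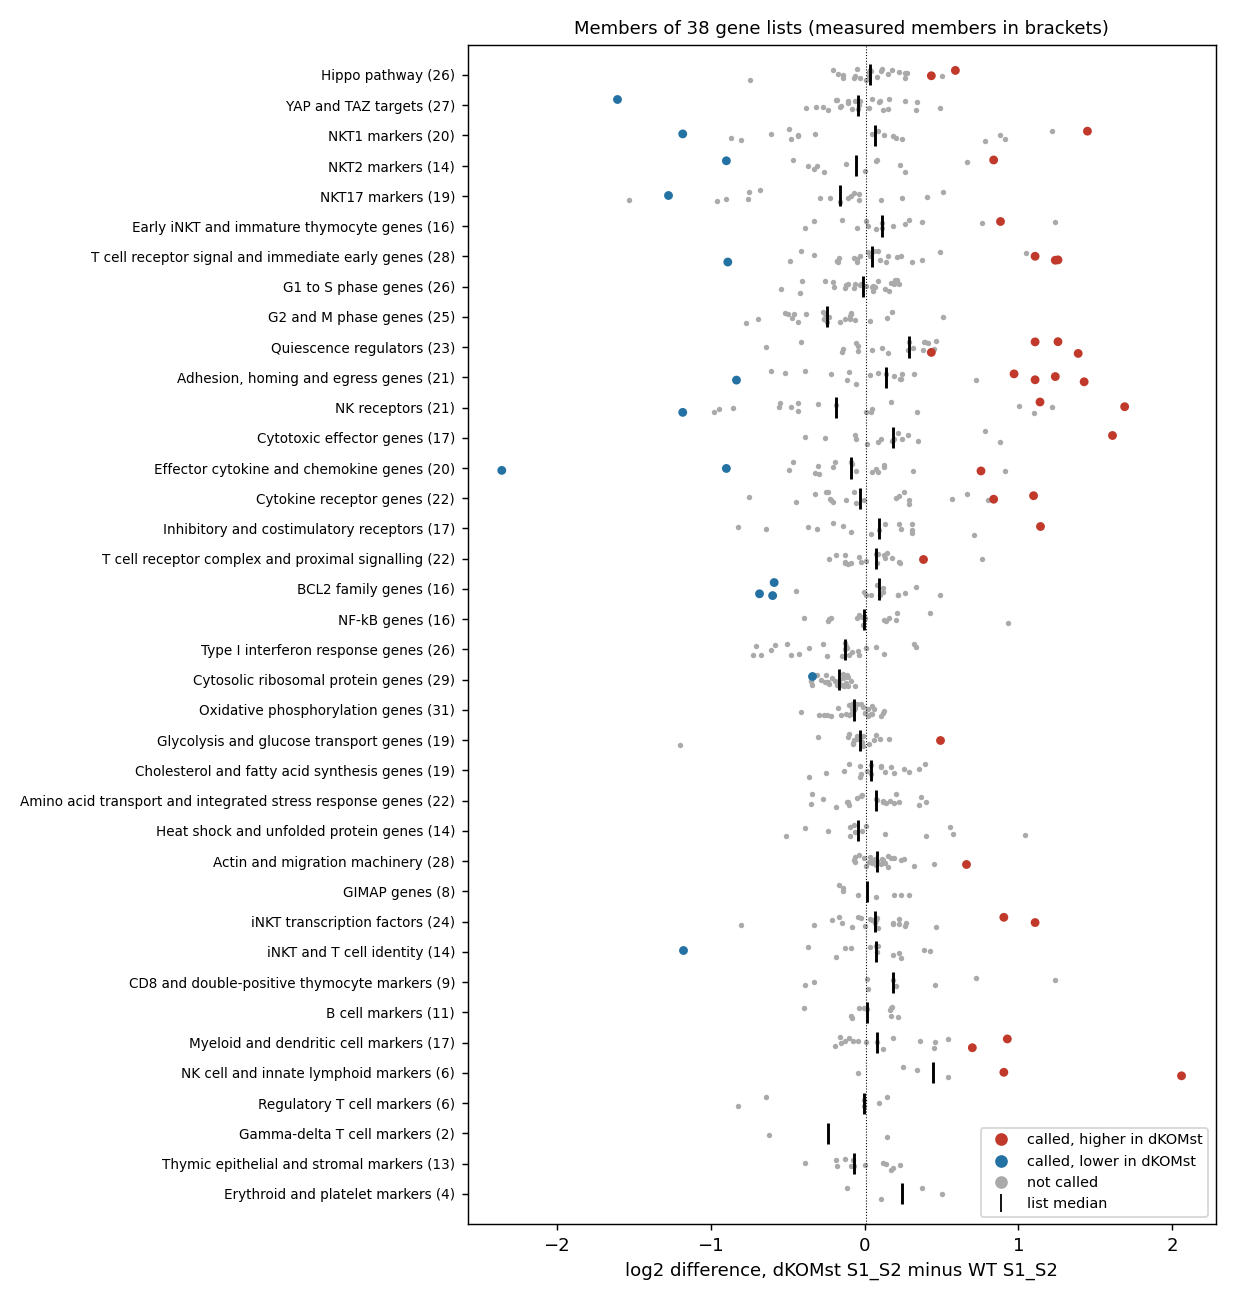
Difference between dKOMst and WT cells (x axis, log2) for each measured member of 38 gene lists (rows, with the number measured), with called members as large red (higher) or blue (lower) points, other members in grey and a black bar at the list median. The dotted line is the median of all clusters (0.009), the quiescence list has its bar at 0.29 with 4 red points, and the ribosomal list lies wholly left of 0.

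Markers of other cells were examined beside these results, and their part in the results was not tested. In the list of NK and innate lymphoid markers Fcer1g and Eomes rose of 6 measured, beside 0.554% of all clusters called higher. The summed level of that list was 41.79 and 40.95 on the dKOMst arrays, against 36.09 to 38.74 on the WT arrays. That sum includes Fcer1g and Eomes, so it in part restates their calls. Of the 6 genes, 2 were above the negative controls on all 8 arrays and 2 on none. Ncr1, the defining NK receptor, lay under the negative controls on all 8 arrays, at 5.16 and 4.73 in dKOMst cells against 4.68 to 5.21 (median 4.90) in WT cells. Of 17 myeloid and dendritic cell markers Itgam and Lyz2 rose, and the summed level was 117.45 and 115.49 on the dKOMst arrays against 113.09 to 116.11 on the WT arrays. The mean level was 6.91 and 6.79 on the dKOMst arrays, above the second-run WT arrays (6.65 to 6.72). Of the 17, 5 had both dKOMst arrays above all 6 WT arrays and 0 had both below, beside 7.66% and 6.68% of all clusters. On all 8 arrays 4 of the 17 were below the negative controls. Itgam, the integrin CD11b, was 7.56 and 7.25 in dKOMst cells against 6.15 to 6.85 (median 6.57) in WT cells, a rise of 0.93 ± 0.18 (SE, adjusted p = 0.008). Lyz2, lysozyme, was 6.81 and 6.96 in dKOMst cells against 6.19 to 6.50 (median 6.30) in WT cells, a rise of 0.70 ± 0.16 (SE, adjusted p = 0.037). Itgax (CD11c) was under the controls at 5.39 and 5.54 in dKOMst cells against 5.32 to 5.76 (median 5.57) in WT cells, and Adgre1 (F4/80) had a difference of -0.16 (adjusted p = 0.9). Tyrobp, an adaptor shared by myeloid and NK cells, was 7.48 and 7.16 in dKOMst cells against 6.58 to 7.06 (median 6.71) in WT cells, a difference of 0.54 (adjusted p = 0.12). The calls were lost for Itgam (adjusted p = 0.29 without dKOMst replicate 1), Lyz2 (0.23 without dKOMst replicate 1, 0.26 without dKOMst replicate 2, 0.051 to 0.075 without WT replicates 1, 4 and 6) and Eomes (0.25 without dKOMst replicate 1, 0.15 without dKOMst replicate 2, 0.062 without WT replicate 5). Of these 3, all of them also lost the call under at least 1 other fit, with an adjusted p of up to 0.14 (Eomes, with only the arrays of both groups fitted). No member of the other lists was called by limma. At an unadjusted p under 0.05 there were 2 of 9 markers of CD8 and double-positive thymocytes, 0 of 11 of B cells, 1 of 6 of regulatory T cells, 1 of 2 of gamma-delta T cells, 1 of 13 of thymic stroma and 2 of 4 of erythroid cells and platelets, beside 10.6% of all clusters.

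Beside the loss of both kinases stands the loss of Mst1 alone, whose arrays all lie in the first run, so that each difference between dKOMst and Mst1KO cells rests on the run term. Of the 4 Mst1KO arrays 2 read 4.81 and 4.84 in the mean of 3 Y-linked genes, below the negative controls, and 2 read 7.36 and 7.58, against 7.19 to 8.02 on the 8 dKOMst and WT arrays. In this contrast 38 clusters differed (0.171%), 26 higher (0.117%) and 12 lower (0.054%) in dKOMst cells. Without the pair of Mst1KO arrays that are low in Y-linked genes all 38 kept their direction and 7 their call, and without dKOMst replicate 1 the count was 4. Gcsam, Tnni1, P3h4, Fcer1g, Samd3, Arsb and Itgae are those 7. Of the 205 clusters called against WT, 35 were also called in the same direction for the loss of Mst1 alone, in which 116 of all clusters were called (0.522%) and 29 without those 2 arrays, and 30 differed between the losses. Both comparisons share the 6 WT arrays.

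The 7 genes that differed from Mst1KO cells with and without those arrays were not called in Mst1KO cells against WT. Tnni1, Gcsam and P3h4 also kept the call between the losses without dKOMst replicate 1, while Fcer1g (adjusted p = 0.098), Samd3 (0.12), Arsb (0.11) and Itgae (0.33) lost it there. Tnni1 had a difference from WT of 0.07 ± 0.14 (SE, adjusted p = 0.96) in Mst1KO cells and differed between the losses by 2.03 ± 0.21 (SE, adjusted p = 3.3e-05). Gcsam had 0.01 ± 0.17 (SE) in Mst1KO cells and 2.16 ± 0.25 (SE, adjusted p = 0.00018) between the losses. Fcer1g had 0.10 ± 0.19 (SE, adjusted p = 0.95) and 1.96 ± 0.28 (SE, adjusted p = 0.0017). Of the lowered genes, Samd3 had -0.31 ± 0.18 (SE, adjusted p = 0.72) in Mst1KO cells and -1.87 ± 0.27 (SE, adjusted p = 0.0017) between the losses. Arsb, a lysosomal sulfatase gene that was 8.96 and 9.45 in dKOMst cells against 10.38 to 10.70 (median 10.56) in WT cells and was named after its value was seen, had -0.13 ± 0.12 (SE, adjusted p = 0.86) and -1.23 ± 0.17 (SE, adjusted p = 0.0017). P3h4 read 8.62 and 8.77 in dKOMst cells against 7.08 to 7.63 (median 7.35) in WT cells and differed between the losses by 1.29 ± 0.17 (SE, adjusted p = 0.0011). Itgae differed between the losses by -1.26 ± 0.22 (SE, adjusted p = 0.012), with 0.43 ± 0.15 (SE, adjusted p = 0.33) in Mst1KO cells. The calls of Bcl2a1b, Bcl2a1d and Bcl2a1a between the losses (-0.63 ± 0.10 (SE, adjusted p = 0.0036), -0.72 ± 0.11 (SE, adjusted p = 0.0035) and -0.83 ± 0.15 (SE, adjusted p = 0.014)) and that of Klrb1 (at least 0.71, as no Mst1KO array exceeded its negative controls, with an adjusted p of 0.0052) were lost without the Mst1KO arrays low in Y-linked genes, at an adjusted p of 0.073, 0.073, 0.19 and 0.061.

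The 35 clusters called under both losses in the same direction included none that was called between them. Of the 35, 20 were still called in Mst1KO cells without the pair low in Y-linked genes. Described here, and chosen after their values were seen, are 8 of these 20. Atp8a2 differed from WT by -1.75 ± 0.16 (SE, adjusted p = 1.9e-06) in Mst1KO cells, and its difference between the losses was -0.03 ± 0.24 (SE, adjusted p = 0.99). Csf1 had -1.96 ± 0.27 (SE, adjusted p = 0.00057) in Mst1KO cells and -0.40 ± 0.40 (SE, adjusted p = 0.86) between the losses. Ptprb was below the negative controls on all 4 Mst1KO arrays (4.48 to 4.86) as on both dKOMst arrays, and the losses cannot be compared in it. Its difference from WT in Mst1KO cells is a bound, -0.35 or beyond (adjusted p = 0.00048 in the fit). Among the rises, Klf6 had 1.16 ± 0.14 (SE, adjusted p = 0.0001) in Mst1KO cells and 0.09 ± 0.21 (SE, adjusted p = 0.94) between the losses, and Ly6c2 had 1.15 ± 0.09 (SE, adjusted p = 7.9e-08) and 0.30 ± 0.13 (SE, adjusted p = 0.51). Cd69 had 1.05 ± 0.16 (SE, adjusted p = 0.0019) and 0.19 ± 0.24 (SE, adjusted p = 0.89), Il4 -0.78 ± 0.13 (SE, adjusted p = 0.0025) and -0.12 ± 0.18 (SE, adjusted p = 0.92), and Emp1 1.13 ± 0.12 (SE, adjusted p = 1.1e-05) and -0.08 ± 0.18 (SE, adjusted p = 0.94). An adjusted p above the threshold between the losses does not show that the values are equal. Without the pair low in Y-linked genes these 8 had an adjusted p of up to 0.043 (Cd69) in Mst1KO cells. Of the 12 largest falls 7 were also called in Mst1KO cells, and of the 12 largest rises 1. Beyond those described, the falls were Kcnn2 (-1.23, adjusted p = 0.039), Eng (-1.62, 0.0076), Myo6 (-1.26, 0.029) and Akap6 (-1.26, 0.012). The rise was Rhob (1.21, 0.038). Without that pair Kcnn2 and Eng kept the call, while Myo6 (0.13), Akap6 (0.059) and Rhob (0.37) lost it.

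With separate WT arrays, the 66 clusters called higher and 34 called lower with the second-run arrays alone could be looked up in the first run. All 4 Mst1KO arrays lay above all 3 first-run WT arrays for 18 of the 66 (27.3%), beside 3.98% of all clusters, and below them for 8 of the 34 (23.5%), beside 4.3% of all clusters. The Mst1KO estimate was above 0 for 43 of the 66 (65.2%), beside 47% of all clusters, and below 0 for 27 of the 34 (79.4%), beside 53% of all clusters. Without the Mst1KO arrays low in Y-linked genes the other 2 lay above all 3 WT arrays for 22 of the 66 (33.3%), beside 9.44% of all clusters, and below them for 15 of the 34 (44.1%), beside 10.5% of all clusters.

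A single dKOMst array of S3 cells was set against 3 WT S3 arrays of the same run, which gives values without a test. It lay above all 3 for 5897 clusters (26.6%) and below them for 5765 (26%). Of the 123 clusters called higher at stages 1 and 2 it lay above all 3 for 67 and below for 8, and of the 82 called lower it lay below for 48 and above for 6. Klrb1 read 7.57 on the dKOMst S3 array against 5.53 to 6.14 on the 3 WT S3 arrays. Gzmc read 9.29 on the dKOMst S3 array against 7.44 to 8.38 on the 3 WT S3 arrays. Itga4 read 11.46 on the dKOMst S3 array against 9.45 to 9.78 on the 3 WT S3 arrays. S1pr1 read 9.91 on the dKOMst S3 array against 8.31 to 8.58 on the 3 WT S3 arrays. In these 4 genes the dKOMst S3 array was well above every WT S3 array. The WT S3 readings of Klrb1 were all below their negative controls (6.20 to 6.41 on the S3 arrays), so its distance from WT is not a measured size. Eomes read 7.67 on the dKOMst S3 array against 6.08 to 6.42 on the 3 WT S3 arrays and Klf7 10.04 on the dKOMst S3 array against 8.80 to 8.90 on the 3 WT S3 arrays, also above. Of the lowered genes, Tlr7 read 8.28 on the dKOMst S3 array against 9.04 to 9.66 on the 3 WT S3 arrays and Pik3ap1 9.84 on the dKOMst S3 array against 11.09 to 11.26 on the 3 WT S3 arrays, below all WT arrays.

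Other genes with large changes at stages 1 and 2 were close to or within the WT range on the S3 array, or not above background there. Gcsam read 6.49 on the dKOMst S3 array against 6.50 to 6.78 on the 3 WT S3 arrays, just below them. Kcnn2 read 5.18 on the dKOMst S3 array against 4.65 to 5.11 on the 3 WT S3 arrays. All 4 were below their negative controls (6.20 to 6.41), so the order of these readings is not one of measured levels. Klra7 read 11.83 on the dKOMst S3 array against 11.13 to 12.04 on the 3 WT S3 arrays and Samd3 10.70 on the dKOMst S3 array against 10.55 to 10.95 on the 3 WT S3 arrays, within the WT range in both genes. Csf1 read 7.60 on the dKOMst S3 array against 7.80 to 8.12 on the 3 WT S3 arrays, and the difference from the WT S3 mean was 0.05 for Bcl2a1a, -0.04 for Bcl2a1b, 0.15 for Bcl2a1c and -0.004 for Bcl2a1d. Whether these values differ between the stages was not tested, since 1 array gives no spread.

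**Figure D5:**
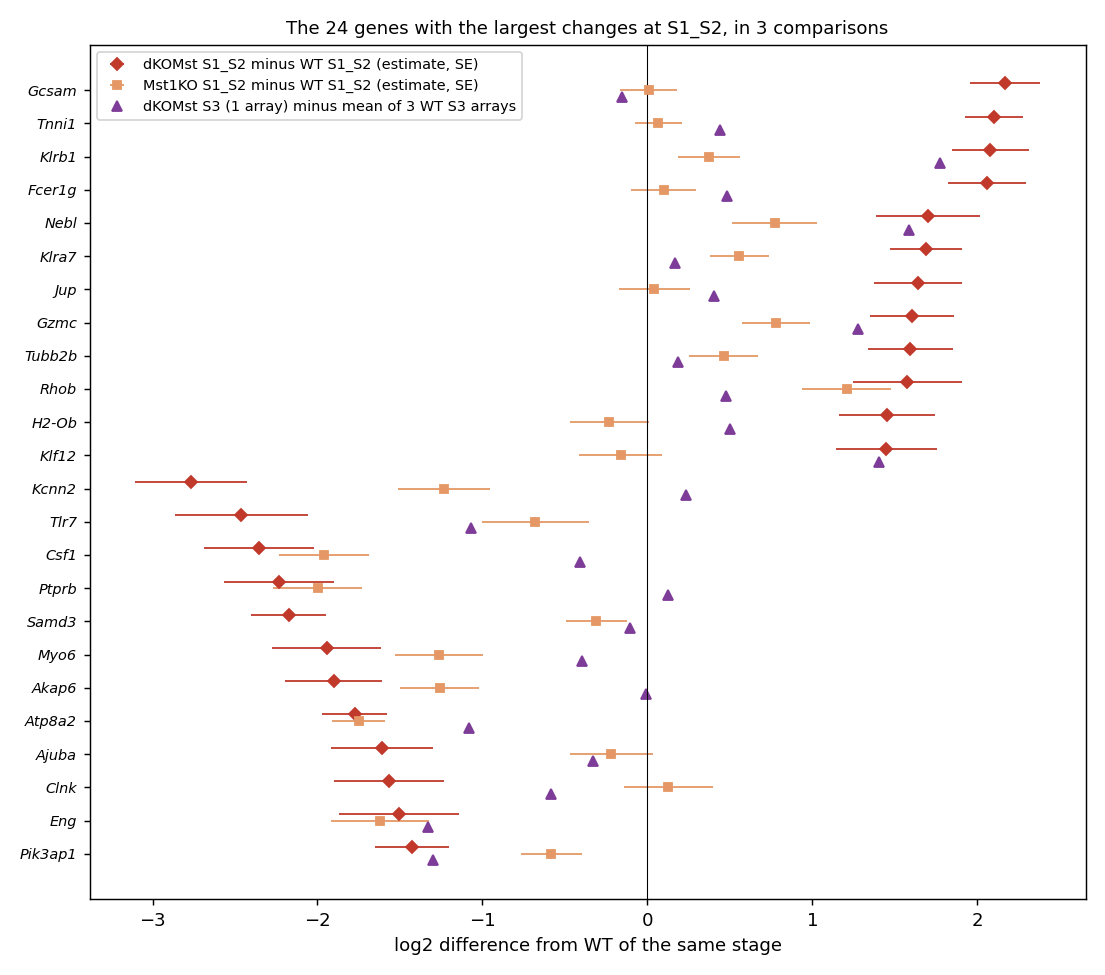
Log2 difference from WT cells of the same stage (x axis) for the 24 genes with the largest changes (rows), for dKOMst cells of stages 1 and 2 (red diamonds with SE), Mst1KO cells of stages 1 and 2 (orange squares with SE) and the single dKOMst S3 array (purple triangles, without error). Tnni1 and Gcsam have diamonds above 2 and squares near 0, Atp8a2 has diamond and square together near -1.8, and the triangle of Tlr7 lies at -1.07. Points that rest on readings below the negative controls, such as those of Ptprb and Klrb1 and the triangle of Kcnn2, are not measured sizes.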

How the data were processed

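Clariom S arrays measured RNA of sorted thymic iNKT cells, 1 array per sample. The deposited log2 values per transcript cluster come from RMA and Affymetrix Expression Console 1.1, which the submitters' processing notes name. No source used here gives a genome build. RMA puts all arrays on one distribution, so a shift shared by most genes would not be seen. Of 28846 deposited items, 6640 were controls, and the other 22206 transcript clusters were tested, 19572 of them with 1 gene symbol and 2634 with none. The table gives no bead or pixel counts, so the number of arrays limits the precision.

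From these values limma 3.58.1 in R 4.3.3 fitted 6 group means and the title number run to all 25 arrays (18 residual degrees of freedom), with empirical Bayes variances and Benjamini-Hochberg adjustment, and no minimum fold. The run term itself called 1362 clusters, and it stands for the order of title numbers only. On simulated data of this design the script was tested at known sizes, and 7 unchanged clusters were called. Alternatives were other normalizations, no run term, the run as a random block, other sets of arrays, array weights, trended variances, a filter on dim clusters and leaving out each array.

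The groups and 38 gene lists (794 symbols, 96 without a named cluster here) were chosen with earlier results of these data known. Named were the 12 largest rises and falls with a usable symbol, the 3 called members of each list with the largest change (in lists without a call, the 2 lowest in p), Stk4 and the sort genes. Genes named beyond that rule, uncalled list members, families and neighbour pairs among them, were chosen after their values were seen. For a symbol with several clusters the brightest was used. Promoter windows and gene order are from RefSeq and were aligned with Biopython 1.88.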

Additional observations from a re-analysis of the deposited data

Results flagged for a closer look

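Gcsam and Kcnn2 had S3 values on the other side of WT from stages 1 and 2. Gcsam rose in dKOMst cells of stages 1 and 2, while its difference on the single dKOMst S3 array was -0.16, at 6.49 against 6.50 to 6.78 on the WT S3 arrays. Kcnn2 fell at stages 1 and 2, while its S3 difference was 0.24, at 5.18 against 4.65 to 5.11 on the WT S3 arrays, with all 4 of these readings below the negative controls (6.20 to 6.41), so that its side of WT in S3 is not one of measured levels. The Gcsam reading was only just under the lowest WT S3 array. Of all clusters, the single dKOMst S3 array lay below all 3 WT S3 arrays for 26% and above them for 26.6%. Neither difference between the stages was tested.

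In 3 genes 1 WT array of stages 1 and 2 stood far from the others. Fcer1g was 5.53 in WT replicate 2, and 6.30 to 6.75 in the other WT arrays. Ptprb was 5.53 in WT replicate 3, and 6.78 to 7.33 in the others. Akap6 was 8.68 in WT replicate 3, and 9.84 to 10.33 in the others. Such a distance was looked for in 28 genes and 38 gene lists, and chance alone gives one in about 5% of groups.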

How the results depend on the processing

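Of the 50 called genes named by rule, 13 kept their call whichever array was left out and 11 under every alternative, and none of the 50 changed direction. The count of 205 clusters called against WT became 60 with only the arrays of both groups fitted, 325 with array weights, 343 with trended and robust variances, 100 with the second-run S1_S2 arrays alone, 68 with all second-run arrays, 106 without the Mst1KO arrays and 2361 at an unadjusted p under 0.05. Leaving out 1 array gave 33 to 230. The other alternatives gave 194 to 265, with 110 higher and 100 lower after quantile normalization, against 123 and 82. The 38 clusters that differed between dKOMst and Mst1KO cells became 195 with no run term, 81 with the run as a random block, 450 with only those groups fitted, 84 with array weights, 60 with trended and robust variances, 7 without the Mst1KO arrays low in Y-linked genes (an alternative chosen after seeing the data) and 1887 at an unadjusted p under 0.05. Leaving out 1 array gave 4 to 69. Cd44, uncalled at 0.03, turned to -0.077 with no run term, -0.027 with the run as a random block, -0.020 after quantile normalization, and -0.16, -0.010 and -0.039 without dKOMst replicate 2, WT replicate 4 and WT replicate 5, and leaving out 1 array gave Cd44 -0.16 to 0.23. Clusters at least 2-fold apart and outside the WT range on the S3 array numbered 203, and 193 to 202 under alternatives added after seeing the data. Of 38 list medians 21 were above 0, and 20 to 26 under the alternatives. These net counts hide changes of single lists. The sign was kept by 31 of the 38 lists without dKOMst replicate 1 and by 32 without dKOMst replicate 2. Under at least 1 alternative 19 of the 38 medians moved by at least the SD of the list's mean level over the WT arrays. The cause of these changes was not tested. No paired analysis was possible because the replicate numbers follow accession order only and pair no arrays.

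With 2 dKOMst arrays the spread of this group is taken from all groups. Without one of them, the other is assumed to vary like the rest. Number run and genotype overlap in part, since dKOMst arrays lie only in the second run and Mst1KO arrays only in the first. Array levels near the negative controls give bounds, not sizes.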
